A study of Mus musculus with 12 samples.

Results

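Sialyltransferases are Golgi enzymes that add sialic acid to the ends of glycan chains on proteins and lipids. St6gal1, the enzyme that links sialic acid in the α2,6 position to galactose on N-glycans, was examined together with 8 other genes of sialylation and ganglioside synthesis. The 9 genes, of 55487 in each count table, were St6gal1, St3gal1, St3gal2, St3gal3, St3gal4, St3gal5, St3gal6, St6galnac4 and B4galnt1. They were taken by Ensembl gene ID from both tables, in which all 9 were listed. The set was selected on the footprint values of St6gal1, which were lower in shOSGEP cells in all 3 replicate pairs. Those values are therefore given as a description with no test. The rule used no value of the other 8 genes, which came with it as relatives. The set was, however, drawn up with earlier results of these data known.

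The data came from B16F10 cells, a mouse melanoma line, grown in medium with serum. Control cells carried a control hairpin (shCtr, genotype label WT), and knockdown cells carried hairpin number 2 against Osgep (shOSGEP, genotype label KD OSGEP). Each genotype had 3 replicates, and each replicate gave a ribosome-protected fragment (RPF, or footprint) library and a total RNA library, which makes 12 libraries in 4 groups of 3. For the footprints, cycloheximide at 10 µg/mL halted elongation for 5 min before lysis, and ribosomes were captured with a puromycin analogue. The labels describe the total RNA libraries as poly-A RNA. Only 1 hairpin was used in these libraries. The methods of the study state that transductions were independent, while the labels give no more than a replicate number.

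The α2,3 enzymes St3gal1 and St3gal2 act mainly on core 1 O-glycans and, for St3gal2, also on gangliosides, whereas St3gal3, St3gal4 and St3gal6 act on the outer galactose of N-glycans and of other chains. St3gal5 makes GM3, the first ganglioside of the common pathway, by adding sialic acid to lactosylceramide. B4galnt1 then adds N-acetylgalactosamine to make GM2 and GD2, and St8sia1, which is outside the 9 genes, makes GD3 from GM3. St6galnac4 adds sialic acid in the α2,6 position to the sialylated core 1 O-glycan. Melanoma cells are known for their gangliosides, and B16 cells for GM3 in particular. The targeted gene, Osgep, codes for the enzyme of the KEOPS complex that adds the t6A modification beside the anticodon. It does so in tRNAs for codons with A in the first position (ANN codons).

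The coding sequences of the 9 genes differed widely in their content of these codons. ANN codons made up 35.0% of the codons of St3gal6, 32.3% of St3gal1, 30.5% of St6gal1 and 29.7% of St3gal4. Their share was 28.5% in St3gal5, 25.9% in St3gal3, 25.1% in St3gal2, 22.5% in St6galnac4 and 19.9% in B4galnt1. The median over 11266 protein-coding genes was 27.0%, so that St3gal6 stood at percentile 96.8, St3gal1 at 90.1, St6gal1 at 80.4 and B4galnt1 at 8.84. The stretch of 20 codons with the most ANN codons within 1 coding exon is shown for 5 genes, namely the 3 with lower footprints in every pair and the genes with the highest and the lowest ANN share. The sequences are those of the coding strand in the GENCODE M21 transcripts of GRCm38, 5′ to 3′, with ANN codons in capitals.
St6gal1, chr16:23321381-23321440, plus strand, codons 101 to 120: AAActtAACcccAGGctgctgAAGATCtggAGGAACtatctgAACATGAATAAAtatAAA
St3gal1, chr15:67106660-67106719, minus strand, codons 318 to 337: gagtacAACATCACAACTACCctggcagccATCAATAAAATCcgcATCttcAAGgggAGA
St3gal4, chr9:35047822-35047881, minus strand, codons 285 to 304: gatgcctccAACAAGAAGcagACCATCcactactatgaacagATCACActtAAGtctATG
St3gal6, chr16:58488912-58488971, minus strand, codons 34 to 53: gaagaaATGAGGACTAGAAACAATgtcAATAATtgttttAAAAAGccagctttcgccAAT
B4galnt1, chr10:127170004-127170063, plus strand, codons 280 to 299: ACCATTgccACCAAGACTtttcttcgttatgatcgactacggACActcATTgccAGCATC
St6gal1 and St3gal1 each had 12 ANN codons among the 20, St3gal6 had 11, and St3gal4 and B4galnt1 each had 9. In St3gal1 the stretch was the last of the coding sequence, which has 337 codons.

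RPF libraries held 12.9 to 40.3 M counts (M for mega), with 15.6% to 48.6% of them on protein-coding genes. Total RNA libraries held 46.7 to 81.1 M counts, with 88.8% to 93.5% on such genes. The footprint library of shOSGEP replicate 1 stood apart, with 67.7% of its counts on ribosomal RNA. In pair 1, 27.2% of the genes tested in RPF and 21.7% of those tested in total RNA had a log2 difference of more than 1 between shCtr and shOSGEP, against 4.43% to 8.57% in pairs 2 and 3. A pair is the shCtr and the shOSGEP library with the same replicate number. Of the melanocyte markers, all 7 were present, led in shCtr total RNA by Tyrp1 at 5102 CPM (counts per M, on library sizes scaled with TMM factors). The markers of other cell types were near 0 for Ptprc and Krt14, at most 0.217 CPM for Pecam1 in every library, and low for Cd68 and Col1a1, with means of 3.53 and 0.734 CPM in shCtr total RNA. Col1a1, a collagen gene, was 15.3, 0.620 and 2.69 CPM in the shOSGEP total RNA libraries, highest in replicate 1, and its part in the results was not tested.

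The knockdown was checked first. Osgep RNA was 13.9, 15.7 and 15.3 CPM in shCtr replicates 1, 2 and 3 and 0.589, 6.92 and 6.77 CPM in the shOSGEP replicates. Thus 4.25% of the control level was left in pair 1, 44.0% in pair 2 and 44.4% in pair 3. Osgep footprints were 7.72, 7.27 and 4.71 CPM in shCtr and 4.87, 3.81 and 2.36 CPM in shOSGEP. The depth of the knockdown thus differed between the pairs at the RNA level, and every shOSGEP RNA library lay below every shCtr RNA library. Of the control footprints, 63.1%, 52.3% and 50.1% was left in pairs 1, 2 and 3, so pair 1 was not the deepest there. The footprint groups overlapped, as shOSGEP replicate 1 lay above shCtr replicate 3. Osgep itself was not called by edgeR, with adjusted p = 0.975 for the RNA and 0.9998 for the footprints. A missing call for another gene therefore does not show that it was unchanged.

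St6gal1 (ENSMUSG00000022885, chromosome 16, 23224740 to 23360350, plus strand, GRCm38) had fewer footprints in shOSGEP than in shCtr cells. Its footprint level was 28.1, 31.2 and 15.98 CPM in shCtr replicates 1, 2 and 3, from 498, 515 and 798 reads. In shOSGEP it was 8.34, 6.59 and 10.4 CPM, from 101, 213 and 400 reads. Each shOSGEP library lay below the shCtr library of its pair, the property St6gal1 was picked for, and the groups did not overlap. The shCtr mean was 25.1 ± 8.04 CPM and the shOSGEP mean 8.43 ± 1.89 CPM (SD, n = 3 each). Of the control level, 29.7%, 21.1% and 64.9% was left in pairs 1, 2 and 3. The log2 change was -1.74, -2.23 and -0.62 in the pairs, and the fitted change was -1.57 (SE 0.34). Pair 3, with -0.62, was the one closest to the limit of the selection.

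The RNA values of St6gal1 did not enter the selection. They came, however, from the same replicates as the footprints that did, so the test given here is not free of it. St6gal1 RNA was 76.3, 100.3 and 38.9 CPM in shCtr and 27.6, 19.96 and 41.0 CPM in shOSGEP. Pairs 1 and 2 were lower in shOSGEP, while pair 3 was not, and the shOSGEP replicate 3 library lay above the shCtr replicate 3 library, so the groups overlapped. The means were 71.8 ± 30.9 and 29.5 ± 10.7 CPM (SD, n = 3 each). The fitted log2 change was -1.28 (SE 0.40), with an unadjusted p of 0.0153 and an adjusted p of 0.975 by the quasi-likelihood test of edgeR with Benjamini-Hochberg adjustment over 14516 genes. St6gal1 RNA was therefore not called, and without both libraries of replicate 2 its change was -0.75.

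**Figure D1:**
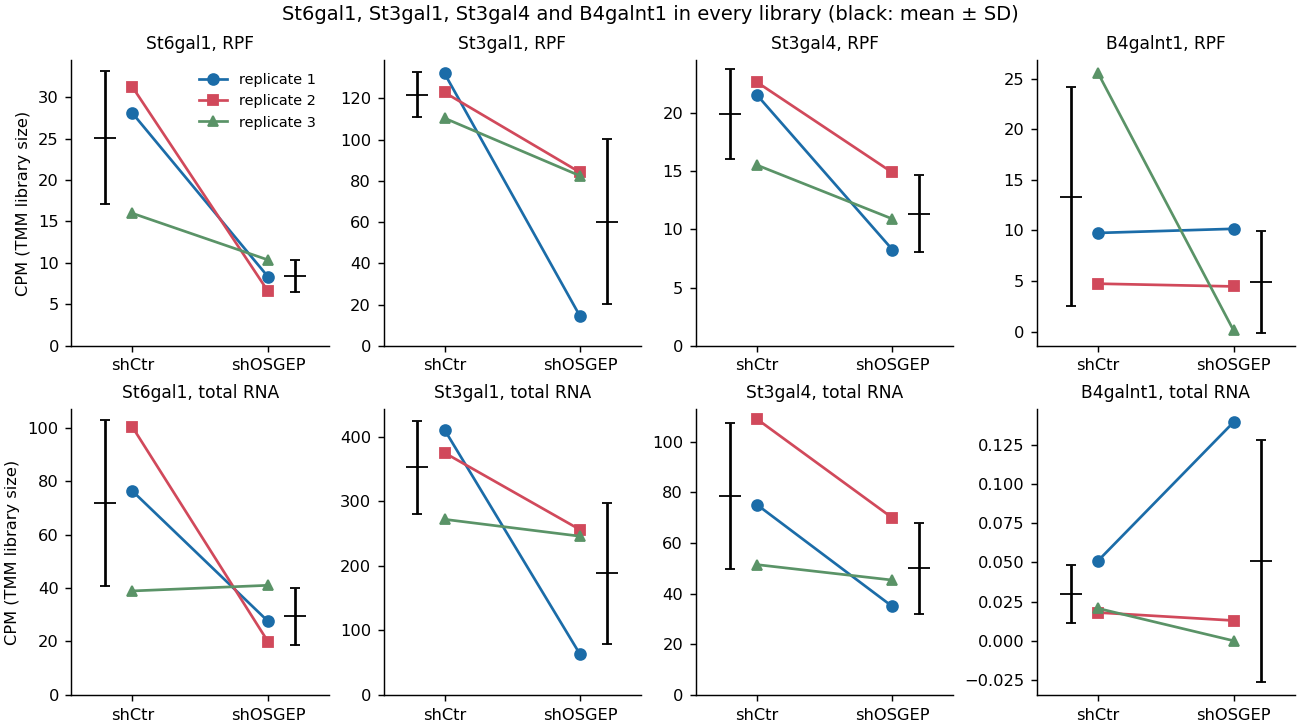
Level of St6gal1, St3gal1, St3gal4 and B4galnt1 in CPM in every library, footprints in the upper row and total RNA in the lower row, with lines joining libraries of the same replicate number and black bars giving the mean ± SD of 3. Each panel has its own scale, and St6gal1 footprints run from 15.98 to 31.2 CPM in shCtr and from 6.59 to 10.4 CPM in shOSGEP.

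The ratio of footprints to RNA of St6gal1 overlapped between the genotypes. On the log2 scale it was -1.44, -1.68 and -1.28 in shCtr and -1.72, -1.58 and -1.98 in shOSGEP. The shOSGEP value was lower in pairs 1 and 3 and higher in pair 2, and the fitted change in the ratio was -0.29 (SE 0.54), given without a test because it contains the footprint contrast. In shCtr cells the mean ratio of St6gal1 stood at percentile 42.4 of 11311 protein-coding genes, whose median was -1.38. The ratio was not scaled by length. Ranks between genes therefore also depend on the coding share of the exon length, which was 1212 of 4916 bases in St6gal1.

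Of the α2,3 enzymes of the O-glycan group, St3gal1 (ENSMUSG00000013846, chromosome 15) was lower in shOSGEP in every pair of both assays. Its footprint level was 132.0, 122.8 and 110.4 CPM in shCtr and 14.3, 84.1 and 82.4 CPM in shOSGEP. Its RNA level was 410.5, 374.9 and 271.9 CPM in shCtr and 62.7, 255.7 and 245.7 CPM in shOSGEP. In both assays the 3 shOSGEP libraries lay below the 3 shCtr libraries, and replicate 1 of shOSGEP was far below the other two. The log2 change was -3.20, -0.55 and -0.42 by pair in RPF and -2.71, -0.55 and -0.15 in total RNA. The fitted changes were -1.01 (SE 0.61) in RPF and -0.91 (SE 0.50) in total RNA, with edgeR adjusted p = 0.9998 and 0.975. Without the shOSGEP replicate 1 library the changes were -0.56 and -0.50, so this library moved both values by more than 1.5 times.

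St3gal2 (ENSMUSG00000031749, chromosome 8), the other enzyme of this kind, showed no common direction. Its footprints were 25.6, 18.9 and 31.1 CPM in shCtr and 18.4, 22.3 and 24.8 CPM in shOSGEP, and its RNA was 43.2, 43.9 and 41.5 against 66.1, 40.3 and 43.7 CPM. The groups overlapped in both assays. The fitted log2 changes were -0.21 (SE 0.28) in RPF and 0.22 (SE 0.21) in total RNA, with edgeR adjusted p = 0.9998 and 0.975.

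Of the α2,3 enzymes of N-glycans, St3gal4 (ENSMUSG00000032038, chromosome 9) was also lower in every pair of both assays. Its footprints were 21.5, 22.6 and 15.5 CPM in shCtr and 8.26, 14.9 and 10.9 CPM in shOSGEP, with no overlap between the groups. Its RNA was 75.2, 109.0 and 51.5 CPM in shCtr and 35.0, 69.9 and 45.4 CPM in shOSGEP, and here shOSGEP replicate 2 lay above shCtr replicate 3. By pair, the log2 changes were -1.37, -0.60 and -0.51 for the footprints and -1.10, -0.64 and -0.18 for the RNA. The fitted changes were -0.81 (SE 0.30) and -0.65 (SE 0.35), with edgeR adjusted p = 0.9998 and 0.975. Without shCtr replicate 2 the RNA change was -0.33.

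St3gal3 (ENSMUSG00000028538, chromosome 4) went the other way in pair 1. Its RNA was 31.9, 26.2 and 22.9 CPM in shCtr and 83.1, 24.1 and 24.4 CPM in shOSGEP, so that the high mean of shOSGEP rested on replicate 1. Its footprints were 9.07, 7.15 and 9.67 CPM in shCtr and 15.6, 7.31 and 6.87 CPM in shOSGEP. The fitted log2 change was 0.70 (SE 0.50) for the RNA and 0.19 (SE 0.39) for the footprints, with edgeR adjusted p = 0.975 and 0.9998. Without shOSGEP replicate 1 these values were -0.16 and -0.30.

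St3gal6 (ENSMUSG00000022747, chromosome 16) had overlapping groups in both assays. Its footprints were 51.8, 62.7 and 41.4 CPM in shCtr and 78.9, 49.4 and 42.7 CPM in shOSGEP. Its RNA was 230.2, 254.6 and 218.2 CPM in shCtr and 181.7, 243.1 and 234.3 CPM in shOSGEP. The fitted changes were 0.13 (SE 0.33) in RPF and -0.09 (SE 0.16) in total RNA, with edgeR adjusted p = 0.9998 and 0.975.

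St6galnac4 (ENSMUSG00000079442, chromosome 2) had nearly equal means in the genotypes. Its RNA was 39.7 ± 7.14 CPM in shCtr and 39.6 ± 1.31 CPM in shOSGEP, and its footprints were 17.8 ± 2.48 and 16.7 ± 7.73 CPM (SD, n = 3 each). Footprints in shOSGEP were 8.67, 17.4 and 24.1 CPM in replicates 1, 2 and 3, against 15.3, 18.0 and 20.2 CPM in shCtr, so the genotypes overlapped and the pairs disagreed in direction. The fitted changes were -0.09 (SE 0.38) in RPF and -0.01 (SE 0.17) in total RNA, with edgeR adjusted p = 0.9998 and 0.998.

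Ganglioside synthesis was represented by St3gal5 (ENSMUSG00000056091, chromosome 6), the GM3 synthase, and by B4galnt1. St3gal5 RNA was 87.4, 96.1 and 83.3 CPM in shCtr and 101.3, 94.8 and 78.2 CPM in shOSGEP. Its footprints were 20.3, 26.6 and 22.4 CPM in shCtr and 25.2, 25.7 and 17.8 CPM in shOSGEP. Both assays overlapped between the genotypes, and the fitted changes were among the smallest of the 9 genes, at -0.01 (SE 0.26) in RPF and 0.04 (SE 0.15) in total RNA (edgeR adjusted p = 0.9998 and 0.987).

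B4galnt1 (ENSMUSG00000006731, chromosome 10, 127165225 to 127172330, plus strand) was almost without RNA. It had 3, 1 and 1 reads in the shCtr and 9, 1 and 0 reads in the shOSGEP total RNA libraries, 15 in all. A count of 0 allows up to 3 reads, or 0.0507 CPM in shOSGEP replicate 3 total RNA, and 5 of the 6 libraries were at or under 3 reads, so B4galnt1 RNA was not tested and no fold is given. Such limits cover counting error only. Footprint reads were nevertheless assigned to it, 173, 78 and 1276 in shCtr and 123, 144 and 4 in shOSGEP, or 9.75, 4.73 and 25.6 CPM against 10.2, 4.46 and 0.104 CPM. Pairs 1 and 2 hardly differed, with log2 changes of 0.06 and -0.08, while pair 3 stood at -7.19, and 71.0% of all 1798 footprint reads came from the shCtr replicate 3 library. The fitted change was -1.48 (SE 1.24, edgeR adjusted p = 0.9998), and without both libraries of replicate 3 it was 0.0011.

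Footprints on a gene with next to no RNA were not common. Of 11604 protein-coding genes tested in RPF, 230 (1.98%) had at most 20 reads summed over the 6 total RNA libraries, as B4galnt1 did. St8sia1, the GD3 synthase, was another such gene, with 0 reads in all 6 total RNA libraries and 36 and 71 footprint reads in shCtr and shOSGEP. A count of 0 allowed at most 0.0388 to 0.062 CPM per total RNA library. The GM3 synthase St3gal5 thus had RNA in every library, while the enzymes for GM2 and GD3 had next to none.

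**Figure D2:**
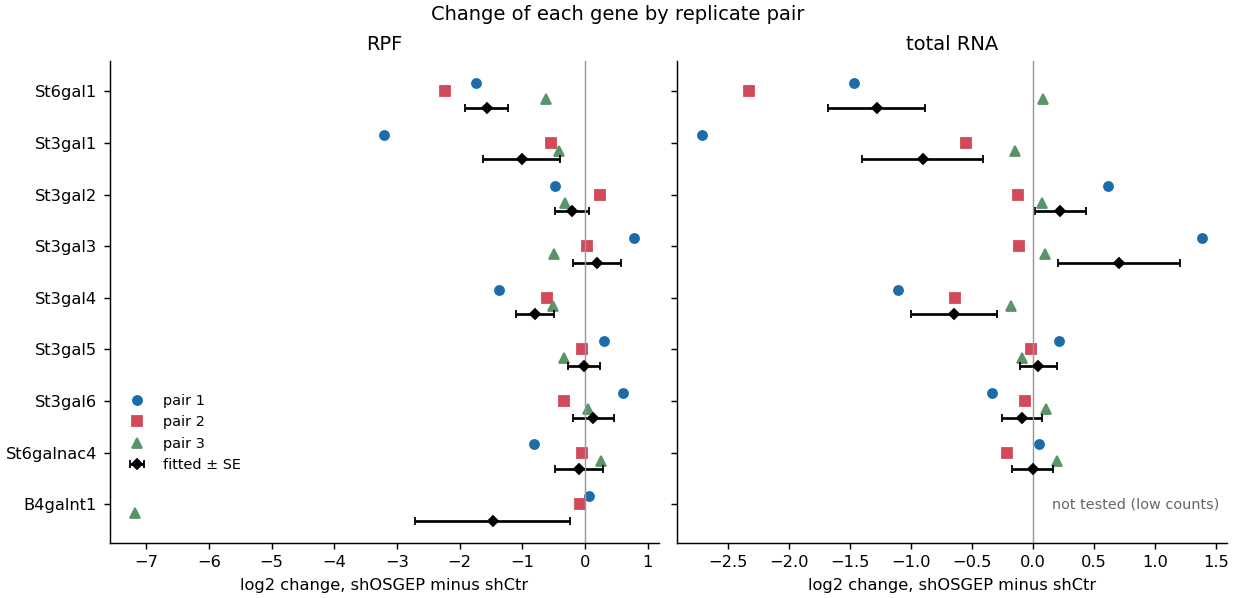
Log2 change from shCtr to shOSGEP of the 9 genes in each replicate pair (coloured points) and as fitted with its SE (black), for footprints on the left and total RNA on the right, on different scales. St6gal1, St3gal1 and St3gal4 lie below 0 in every footprint pair, and B4galnt1 has a single pair at -7.19.

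Counted without St6gal1, which was picked for this pattern, 2 of the other 8 genes, St3gal1 and St3gal4, had lower footprints in shOSGEP in all 3 pairs, and none had higher footprints in all of them. Of the 13529 genes tested in RPF, 15.2% were lower in all pairs and 15.6% were higher. St3gal1 and St3gal4 also had all shOSGEP footprint libraries below all shCtr libraries, as did 2.64% of all genes tested. In total RNA, St3gal1 and St3gal4 were lower in all pairs (16.2% of 14516 genes were), none was higher in all pairs (17.7% of genes were), and the shOSGEP libraries of St3gal1 lay below all shCtr libraries (as for 3.09% of genes). Both assays were lower in all pairs for St3gal1 and St3gal4, against 7.29% of the 12560 genes tested in both. St3gal2, St3gal5, St6galnac4 and B4galnt1 were lower in 2 of 3 footprint pairs.

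St6gal1 footprints and ratio aside, none of the other 8 genes passed the test in RPF, none of the 8 tested passed it in total RNA, and none of the other 7 passed it in the ratio, where the edgeR adjusted p was 0.999965 for each. No gene of the whole tables was called either (0% in each comparison), although an unadjusted p under 0.05 was found for 139 genes in RPF (1.03%), 259 in total RNA (1.78%) and 17 in the ratio (0.135%). By DESeq2 1 gene was called in RPF, 8 in total RNA and 0 in the ratio. Among the 9 genes, the unadjusted p of St3gal4 in RPF was 0.0322 in the edgeR fit. Such a p together with a lower value in shOSGEP was found for 0.273% of all genes in RPF, 0.262% in total RNA and 0.0637% in the ratio. Without St6gal1, the median log2 change was -0.15 for 8 genes in RPF and -0.0052 for the 7 tested in total RNA. The medians over all genes tested were 0.05 and 0.02. With St6gal1 included, the median in total RNA was -0.05.

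The fitted change in the footprint-to-RNA ratio lay within 2 SE of 0 for the 7 other genes. It was -0.11 (SE 0.84) for St3gal1, -0.43 (SE 0.34) for St3gal2, -0.51 (SE 0.67) for St3gal3, -0.15 (SE 0.48) for St3gal4, -0.06 (SE 0.28) for St3gal5, 0.23 (SE 0.36) for St3gal6 and -0.08 (SE 0.43) for St6galnac4. No gene of the set had a ratio that was lower, or higher, in all 3 pairs, as 11.2% and 11.6% of all genes tested had. In shCtr cells the ratio itself, not scaled by length, differed between the genes. It was highest for St3gal2, at -0.79 ± 0.40 on the log2 scale and percentile 87.2, and lowest for St3gal6, at -2.19 ± 0.19 and percentile 6.10 (SD, n = 3). St3gal4 and St3gal5 were also low, at percentiles 13.4 and 12.8, while St3gal1 stood at 38.2, St3gal3 at 29.4 and St6galnac4 at 68.2. This order also depends on the coding share of the exons, which was 990 of 6172 bases in St3gal6 and 1457 of 2618 in St3gal5. Per kilobase, shCtr footprints and RNA were 52.5 and 37.97 CPM for St3gal6 and 15.9 and 34.0 CPM for St3gal5. On that scale St3gal6 had more footprints for its RNA than St3gal5.

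Levels were compared between genes per kilobase of exon for RNA and per kilobase of coding sequence for footprints. In shCtr total RNA, St3gal1 was highest at 51.4 ± 10.5 CPM per kilobase, followed by St3gal6 at 37.97 ± 3.004, St3gal5 at 34.0 ± 2.48 and St3gal4 at 26.9 ± 9.89 (SD, n = 3). St6gal1 came next at 14.6 ± 6.29, before St3gal3 at 9.76 ± 1.65, St3gal2 at 8.50 ± 0.241 and St6galnac4 at 6.13 ± 1.10. Ranges of neighbours in this order overlapped down to St3gal2, while St3gal2 and St6galnac4, and St6galnac4 and B4galnt1 at 0.0087, did not overlap.

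In shCtr footprints, St3gal1 again led, at 120.1 ± 10.7 CPM per kilobase of coding sequence, and lay above St3gal6 at 52.5 ± 10.7 without overlap. St3gal6 in turn lay above St3gal2 at 23.2 ± 5.63 without overlap. Below these, St6gal1 at 20.7 ± 6.63, St6galnac4 at 19.3 ± 2.68, St3gal4 at 16.2 ± 3.11, St3gal5 at 15.9 ± 2.17, B4galnt1 at 8.33 ± 6.79 and St3gal3 at 7.14 ± 1.09 each overlapped the next (SD, n = 3). Of the summed level of the 8 sialyltransferases per length, St6gal1 made up 7.48% ± 2.18 of the RNA in shCtr and 3.97% ± 1.53 in shOSGEP, and 7.43% ± 1.91 and 3.62% ± 0.924 of the footprints. By replicate, its RNA share was 7.85%, 9.45% and 5.14% in shCtr and 3.89%, 2.48% and 5.53% in shOSGEP, so the groups overlapped and pair 3 was higher in shOSGEP. The footprint share contains the values that chose St6gal1 and is a description. St3gal1 made up 27.1% ± 2.75 of the RNA in shCtr and 17.6% ± 9.77 in shOSGEP, the latter with replicate 1 at 6.35%.

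**Figure D3:**
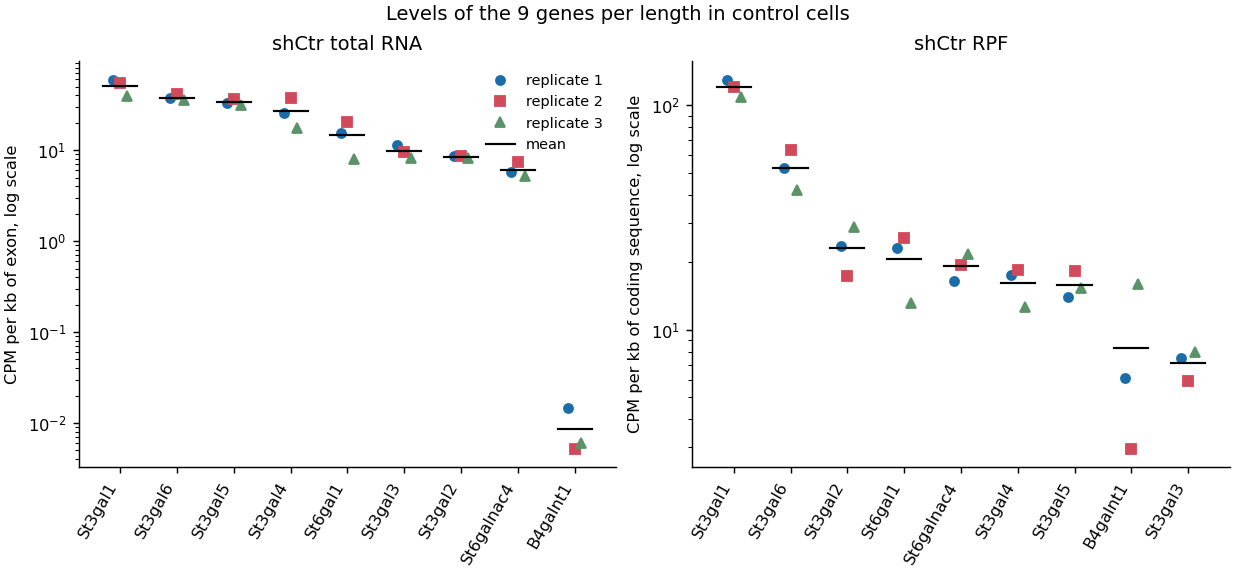
Level of the 9 genes in the 3 shCtr libraries per kilobase, on log axes, for total RNA (left, per kilobase of exon) and footprints (right, per kilobase of coding sequence), each ordered by its mean (black line). B4galnt1 is last in total RNA at 0.0087 CPM per kilobase and eighth of 9 in footprints at 8.33.

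The profile of St6gal1 over the 12 libraries, centred within each assay, was compared with 11310 other protein-coding genes by the root mean square difference in log2 CPM. The 5 nearest were Magix (0.41), Mamdc2 (0.42), Eps8 (0.43), Igsf11 (0.44) and Eogt (0.46). All 5 had lower RNA and footprints in shOSGEP in pairs 1 and 2, as St6gal1 did. Within the set, St3gal4 was the nearest to St6gal1, at 0.58 and rank 20. The other α2,3 enzymes and St6galnac4 ranked between 3007 (St6galnac4, 0.82) and 9420 (St3gal3, 1.07). Likeness here rests on the footprint values that chose St6gal1 and is a description.

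Melanocyte markers moved with the lower genes in pair 1. That pair also held the most strongly changed genes in general, 27.2% in RPF and 21.7% in total RNA beyond 1 log2 unit. The markers were Pmel, Tyr, Tyrp1, Dct, Mlana, Mitf and Sox10, which are pigment genes and regulators of the lineage. In the fit 7 of 7 were lower in shOSGEP in each assay, none of them called. Among all genes 45.1% had a negative change in RPF and 46.9% in total RNA. Only 2 of the 7 markers were lower in all 3 pairs of total RNA (16.2% of all genes were), and 5 in RPF (15.2%). The median log2 change of the markers was -2.16, -0.36 and 0.06 by pair in total RNA and -1.74, -0.69 and -0.02 in RPF. St3gal1 RNA, at -2.71, -0.55 and -0.15, and St3gal4 RNA, at -1.10, -0.64 and -0.18, were likewise lowest in pair 1, whereas St6gal1 RNA was lowest in pair 2, at -2.33. The part of these markers in the results was not tested, and in bulk libraries fewer cells of a type and less RNA per cell cannot be told apart.

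**Figure D4:**
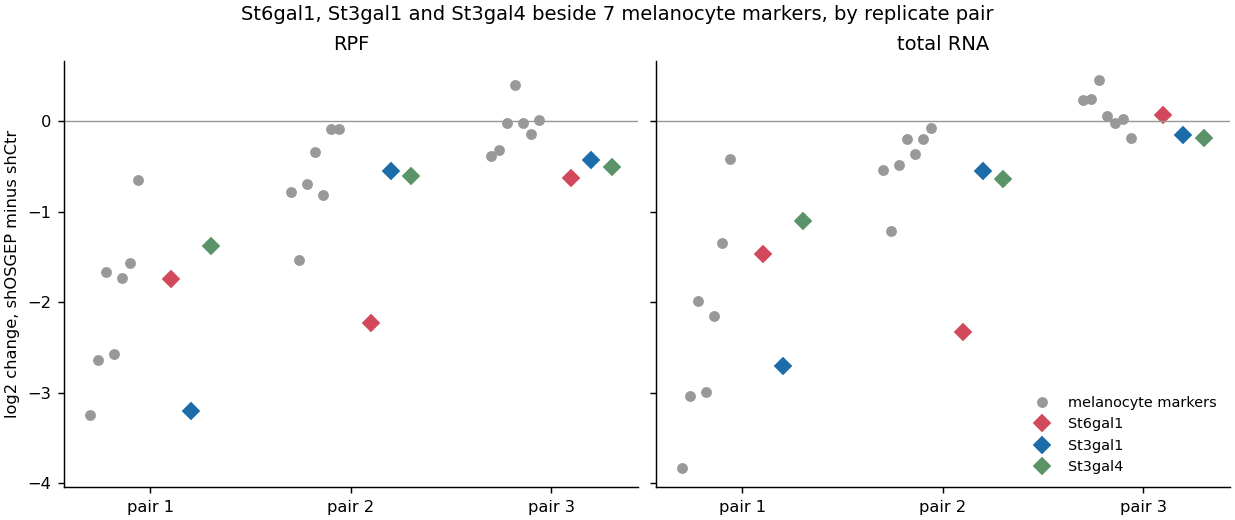
Log2 change from shCtr to shOSGEP in each replicate pair for 7 melanocyte markers (grey) and for St6gal1, St3gal1 and St3gal4 (coloured), with footprints on the left and total RNA on the right. The markers are lowest in pair 1, with a median of -2.16 in total RNA, and lie around 0 in pair 3.

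Exons of 4 of the 9 genes overlapped those of a gene on the opposite strand, and whether the counting used strand was not stated. St6gal1 shared 200 bases, 4.07% of its exon length, with BC106179, which had 278 RNA and 58 footprint reads over all libraries. The pair changes of BC106179 were -2.11, -2.36 and 0.27 for RNA, with the same signs as those of St6gal1, and -3.49, -2.17 and 0.85 for footprints, where the sign in pair 3 was opposite to that of St6gal1. St3gal6 shared 26.0% of its exon length with Dcbld2, B4galnt1 20.7% with Slc26a10 and St3gal4 14.1% with 4930581F22Rik. Dcbld2 was well expressed, with 37975 RNA and 6707 footprint reads in all. St3gal6 had 38222 RNA reads in shCtr and 44409 in shOSGEP, and 4022 and 4202 footprint reads. How far Dcbld2 reads entered the levels of St3gal6 was not tested. For 4930581F22Rik there were 742 RNA and 467 footprint reads. Slc26a10 had 20 RNA and 19 footprint reads in all, far fewer than the footprint reads of B4galnt1. Without strand, reads in the shared bases cannot be assigned to one of the partners.

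The other genes of sialic acid metabolism were taken from 5 lists of 56 genes in all. No listed gene was called in any comparison, as was true of all genes. Of 12 other sialyltransferases, only St6galnac3, St6galnac6 and, in RPF, St8sia1 passed the filter on low counts. St6galnac6, which acts on gangliosides, was 68.1 ± 4.98 CPM in shCtr RNA and 57.5 ± 3.71 CPM in shOSGEP (SD, n = 3 each), and its fitted log2 change was -0.24 (SE 0.13, edgeR adjusted p = 0.975). Neither St6gal2, the second α2,6 enzyme for N-glycans, nor St8sia4, a polysialyltransferase, had a read in the total RNA libraries.

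Of the 7 genes in the list of sialic acid supply, which also holds Slc17a5 and Cmah, 6 were tested, and none passed the test. All 6 had a negative fitted change in total RNA, as did 46.9% of all genes, and 4 were lower in all 3 pairs, as were 16.2% of all genes. Their median RNA change was -0.23, and it was -0.13 without shCtr replicate 2, -0.35 without shCtr replicate 3 and -0.12 without shOSGEP replicate 1. For footprints 5 of 6 were negative, against 45.1% of all genes. Their median was -0.30, and it was -0.17 without shCtr replicate 2 and -0.46 without shOSGEP replicate 2. Gne, the enzyme that starts sialic acid synthesis, had an RNA level of 38.6 ± 3.31 CPM in the shCtr group and 31.4 ± 5.15 CPM in the shOSGEP group, with changes of -0.62, -0.18 and -0.11 by pair. Cmas, which makes CMP-sialic acid, had 73.1 ± 14.1 and 61.3 ± 7.30 CPM (SD, n = 3 each), with changes of -0.36, -0.27 and -0.09. Both were lower in all pairs of footprints too. Their fitted RNA changes were -0.30 (SE 0.17) and -0.25 (SE 0.19), with an edgeR adjusted p of 0.975 for each.

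Of 8 genes of glycosphingolipid assembly, 6 were tested, and their median log2 change was -0.02 in RPF and 0.04 in total RNA. Their footprint median varied by pair, at -0.76, 0.13 and -0.16, and ran from -0.25 to 0.12 when single libraries were left out. They included Ugcg, which makes glucosylceramide, at 0.14 (SE 0.20), and B4galt5, which makes lactosylceramide, at -0.16 (SE 0.17), both in total RNA. Of 14 genes of sialidases and glycolipid breakdown, 13 were tested in RPF and 12 in total RNA, with medians of -0.07 and -0.00. Without shOSGEP replicate 1 the footprint median was -0.37 and that of the ratio went from -0.06 to -0.32, and without shOSGEP replicate 3 these were 0.12 and 0.18. Neu1, the lysosomal sialidase, was higher in all 3 pairs of both assays, with log2 changes of 0.82, 0.05 and 0.18 for the RNA and of 0.43, 0.13 and 0.41 for the footprints. Its fitted changes of 0.42 (SE 0.29) and 0.34 (SE 0.27) were not called (edgeR adjusted p = 0.975 and 0.9998).

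Of 15 genes that build the acceptor glycans, 14 were tested, with medians of -0.10 in RPF and 0.12 in total RNA. Leaving out single libraries moved these medians to between -0.24 and 0.01 and between -0.02 and 0.21. Their change in the footprint-to-RNA ratio was negative for 13 of 14, against 49.0% of all genes tested, and none was called. The median ratio change was -0.19, with -0.49, -0.02 and -0.22 by pair, and it was -0.10 without shOSGEP replicate 1, -0.08 without shCtr replicate 3 and -0.29 without shOSGEP replicate 2. Mgat5, which starts the β1,6 branch of N-glycans, was lower in all pairs of both assays, with RNA changes of -1.67, -0.13 and -0.01. The RNA of Mgat4b, another branching enzyme, was 241.8 ± 60.1 CPM for shCtr and 353.1 ± 52.1 CPM for shOSGEP (SD, n = 3 each), a fitted change of 0.55 (SE 0.22) with an edgeR adjusted p of 0.975. In its footprints the fitted change was 0.01 (SE 0.46). The change in its footprint-to-RNA ratio was -0.53 (SE 0.53, edgeR adjusted p = 0.999965), so the difference between the assays did not pass the test.

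**Figure D5:**
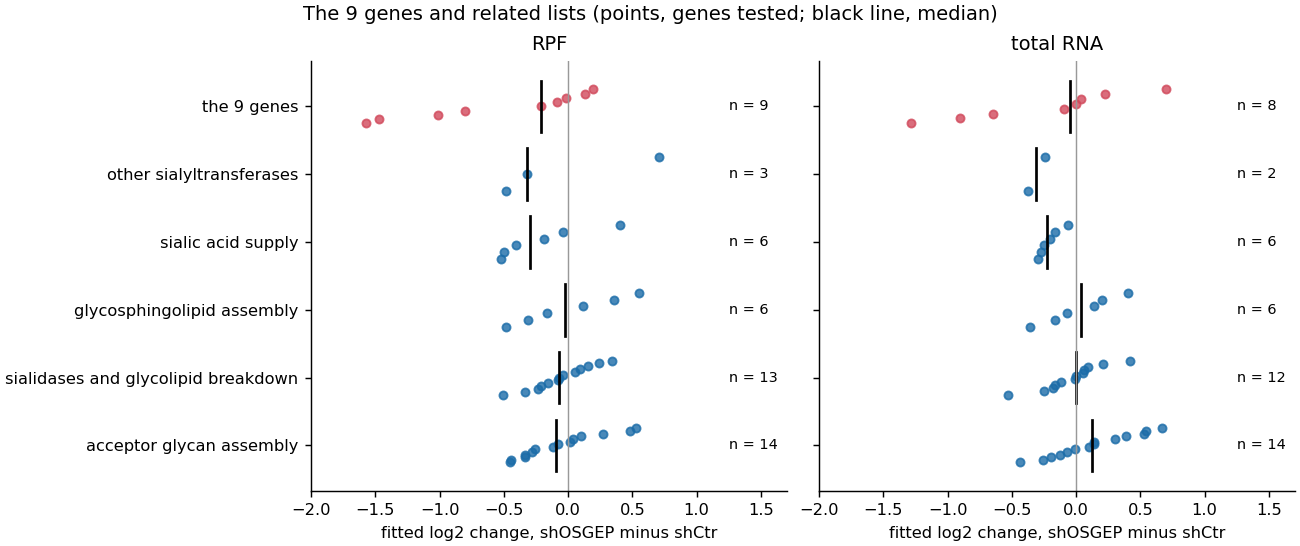
Fitted log2 change from shCtr to shOSGEP of the 9 genes (red) and of the genes of 5 related lists (blue) that were tested, with the median of each list as a black line, for footprints on the left and total RNA on the right. The 9 genes spread from -1.57 to 0.19 in footprints, and the supply list lies below 0 in total RNA for all 6 genes.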

How the data were processed

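Ribosome-protected fragments and total RNA of B16F10 cells were sequenced in 12 libraries. The authors deposited whole-number read counts per Ensembl gene, without normalisation. The submitters' processing notes name FastQC 0.11.9, Trim Galore 0.6.6, cutadapt, STAR (with version 3.0) and the builds GRCm39 and GRCm38. In the methods of the study, RPF reads selected by length went to the coding transcriptome and, for a stalling analysis, to the GRCm38 genome, both with STAR. For RNA sequencing the methods name nf-core/rnaseq, with the same number 3.0, using STAR and Salmon on GRCm38, and for another set of libraries a custom workflow on GRCm39. Which of these made the deposited counts, the strand setting and the treatment of multiply mapped reads were not given in the sources used here. GENCODE M21 (GRCm38) supplied symbols, coordinates and lengths, and 55227 of 55487 gene IDs matched.

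Counts were analysed with R 4.3.3 and edgeR 4.0.16 (filterByExpr, TMM, quasi-likelihood test, Benjamini-Hochberg adjustment over all genes tested, threshold 0.05). The model was fitted per assay, and the ratio of footprints to RNA was the interaction of assay and genotype over all 12 libraries. CPM used TMM library sizes, and log2 CPM a prior count of 2. The fits were tested on simulated data with a dispersion set in advance and no replicate effects. That test therefore does not show how the fits perform on these libraries. Summaries used Python 3.11.15. Replicates of a group differed far beyond sampling noise (chi-square per degree of freedom of at least 88.4). Protein-coding counts were 4.42 to 17.0 M per RPF library and 43.7 to 74.5 M per total RNA library (M for mega).

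Groups and replicate numbers came from the labels. Same-numbered libraries deviated together from their group means (r for replicates 1, 2 and 3 was 0.59, 0.51 and 0.66 among RPF libraries and 0.52, 0.54 and 0.29 among total RNA libraries), so a fit with the replicate number as a block was an alternative. Others were DESeq2 1.42.0, RLE factors, other filters, protein-coding genes only, and leaving out libraries or pairs.

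The 9 genes and all lists were chosen with earlier results of these data known. Named besides them were listed genes with 1 sign in all pairs of both assays or an unadjusted p under 0.05, the 5 genes nearest to St6gal1, overlapping genes, and, chosen after their values were seen, St8sia1, St6galnac3, St6galnac6, St6gal2, St8sia4, Ugcg and B4galt5.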

Additional observations from a re-analysis of the deposited data

Results flagged for a closer look

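Nanp, the phosphatase that releases free sialic acid during its synthesis, was higher in shOSGEP footprints in all 3 pairs (log2 changes of 0.15, 0.83 and 0.29) and lower in total RNA in all 3 (-0.42, -0.14 and -0.11). Its change in the footprint-to-RNA ratio was 0.60 (SE 0.39, edgeR adjusted p = 0.999965), so the difference between the assays did not pass the test.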

How the results depend on the processing

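With libraries or pairs left out, genes called stayed at 0 in RPF, total RNA and the ratio. The number called was otherwise 229 in RPF without a filter (33633 genes tested) and 1 with DESeq2, and in total RNA 8 with DESeq2 and 1 with the replicate block. The ratio gave 0 calls in every alternative. St6gal1 footprints carry no test under any setting. Of the members' values that do, the only one called in any of these alternatives was the footprint change of B4galnt1 without a filter (-1.60, edgeR adjusted p = 0.0335), and the cause was not tested. Its SE was 0.43 there and 1.24 in the main fit. Its changes in pairs 1, 2 and 3 were 0.06, -0.08 and -7.19, so the value rested on pair 3. With the replicate block, the St6gal1 RNA change was -1.25 (edgeR adjusted p = 0.721), that of St3gal1 -1.10 and that of St3gal4 -0.64, and the block changed no call of a member.

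Over the fits that left out a library or a pair, St6gal1 ranged from -1.99 to -1.24 for footprints, from -1.91 to -0.75 for RNA and from -0.49 to -0.08 for the ratio. St3gal1 ranged from -1.36 to -0.50 for footprints and from -1.32 to -0.38 for RNA, and St3gal4 from -1.06 to -0.57 and from -0.97 to -0.33. The sign of other members turned. For footprints, the range without single libraries and then without pairs was -0.30 to 0.39 and -0.26 to 0.49 for St3gal3, -0.12 to 0.13 and -0.18 to 0.12 for St3gal5, -0.18 to 0.30 and -0.19 to 0.37 for St3gal6, -0.45 to 0.21 and -0.34 to 0.10 for St6galnac4, and -2.57 to -0.59 and -2.73 to 0.0011 for B4galnt1. For RNA it was -0.038 to 0.35 and -0.034 to 0.37 for St3gal2, -0.16 to 0.99 and -0.026 to 0.97 for St3gal3, -0.050 to 0.12 and -0.063 to 0.077 for St3gal5, -0.18 to 0.018 and -0.21 to 0.0041 for St3gal6, and -0.13 to 0.15 and -0.11 to 0.12 for St6galnac4. For the ratio it was -0.18 to 0.00030 and -0.18 to -0.046 for St3gal1, -0.14 to 0.012 and -0.12 to 0.043 for St3gal5, -0.20 to 0.46 and -0.19 to 0.48 for St3gal6, and -0.44 to 0.21 and -0.23 to 0.14 for St6galnac4. With at least 10 counts in every library, St3gal5 footprints were 0.00019 and St6galnac4 RNA 0.0011, and with the replicate block the latter was 0.0092. With lengths from the longest transcript, St3gal4 and St3gal5, and St3gal2 and St6galnac4, exchanged places in the order of RNA levels, as did St3gal4 and St6galnac4 in that of footprint levels. At this depth and with 3 libraries a group, the median SE of a gene's log2 change was 0.42 in RPF and 0.27 in total RNA.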
